A study of Mus musculus with 2 samples.

Results

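Immediate early genes are genes that a cell transcribes within minutes of a stimulus, without first making new protein. The 36 genes described here were taken by name from a list that was chosen with earlier results of these data known. Shares and medians of the members set beside those of all genes are therefore descriptions only. All 36 were found among the 39098 gene symbols of both libraries, with at least 1 UMI (unique molecular identifier, 1 counted RNA molecule) in each library. The question was which cell types of the trigeminal ganglion (TG) carried each of them, and how uniform the difference between the control and the CFA library was over these types.

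Both libraries came from the right TG of male C57BL/6 mice aged 5 to 8 weeks. For the CFA group, 20 μL of complete Freund's adjuvant diluted in 0.9% saline was injected into the right vibrissal pad, and the methods give saline in its place for the control group, which the sample labels call untreated. Tissue was taken at day 7, and all cells were released with papain at 37 °C for 30 to 90 min. The time used for each library and the number of mice pooled in it are not given, and RNA present in the animal and RNA made during digestion cannot be told apart. One BD Rhapsody library (a method that captures single cells in microwells) was made per condition, so no difference between conditions has a replicate check, and no p-value is given.

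Many immediate early genes are switched on by calcium and by the MAP kinase pathway, which act on the factors CREB and SRF at their promoters. Their products include transcription factors (the AP-1, EGR, NR4A and KLF families), phosphatases that end the kinase signal, and proteins that destroy mRNA. In sensory ganglia they are best known as markers of recent activity in neurons, but glia, vessel cells and leukocytes use the same genes.

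The filters of the methods kept 6695 control and 3661 CFA cells, with 48233077 and 21658155 UMIs and a median of 1448 and 1192 UMIs per cell. The files share 27 cell barcodes. Cells were clustered without the 36 genes, and the clusters were named by marker genes, so each name means cells like that type. The names were neurons, myelinating and non-myelinating Schwann cells (mSCs and nmSCs), oligodendrocyte-like cells (OLCs), satellite glia (SGCs), macrophages, T or NK cells, neutrophils or monocytes, fibroblasts (FBs), endothelial cells (ECs), mural cells (muscle cells and pericytes of vessels) and erythroid cells. A further 749 control and 262 CFA cells stayed unnamed. Within each type, equal numbers of cells of both libraries were drawn from each narrow range of UMIs, from 1313 per library for mSCs and 416 for neurons down to 26 for T or NK cells and 23 for mural cells. After this matching the median depth was 37470 control and 36676 CFA UMIs in neurons, and from 810 to 3950 UMIs in the other 10 types. OLCs stayed unequal, at 3277 control and 3950 CFA UMIs.

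Levels are given in CPM, the usual library-scaled unit of counts, as the share that a gene took of all UMIs of that type and library. Differences are the log2 ratio of the CFA CPM over the control CPM, so 1 is a 2-fold higher and -1 a 2-fold lower level in the CFA library. In parentheses stand exact 95% intervals, which cover counting error only and not the variation between cells or between mice. A gene was counted as measured in a type when it had at least 50 UMIs there over both libraries. Levels are compared between types and libraries for 1 gene at a time, since the counts are not scaled to gene length.

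The promoters of Btg2, Dusp1 and Egr2 are shown because these genes carry the contrasts reported here. Btg2 was higher in the CFA library in most types, Dusp1 was lower in most types, and Egr2 was among the members whose difference varied most between types. The windows run from 250 bases before to 50 bases after a RefSeq start site (GRCm38.p6), 5′ to 3′ on the gene's strand. Capitals mark a CRE, the binding letters of CREB (TGACGTCA), or a CArG box, the binding letters of SRF.
Btg2 (chr1:134079106-134079405, minus strand): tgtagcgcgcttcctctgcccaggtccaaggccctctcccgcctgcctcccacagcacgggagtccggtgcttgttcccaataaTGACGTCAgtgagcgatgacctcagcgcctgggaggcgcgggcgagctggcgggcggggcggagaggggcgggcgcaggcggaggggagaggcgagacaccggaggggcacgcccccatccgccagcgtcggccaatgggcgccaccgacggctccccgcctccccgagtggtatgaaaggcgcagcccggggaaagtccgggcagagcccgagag
Dusp1 (chr17:26508423-26508722, minus strand): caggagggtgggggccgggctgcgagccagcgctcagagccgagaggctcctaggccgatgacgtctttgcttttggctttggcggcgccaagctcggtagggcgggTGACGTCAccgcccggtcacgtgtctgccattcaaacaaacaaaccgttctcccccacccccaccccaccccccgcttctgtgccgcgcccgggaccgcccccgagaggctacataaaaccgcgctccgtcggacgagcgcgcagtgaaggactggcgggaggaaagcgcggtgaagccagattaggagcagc
Egr2 (chr10:67537619-67537918, plus strand): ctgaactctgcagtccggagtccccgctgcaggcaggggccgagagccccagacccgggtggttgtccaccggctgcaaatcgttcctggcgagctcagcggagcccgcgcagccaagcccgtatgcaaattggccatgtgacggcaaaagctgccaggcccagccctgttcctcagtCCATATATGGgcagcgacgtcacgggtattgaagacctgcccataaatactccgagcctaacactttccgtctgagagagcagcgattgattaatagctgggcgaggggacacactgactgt

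The CRE begins at position -166 from the start site in Btg2 and at -143 in Dusp1, and the CArG box at -72 in this Egr2 window, 1 of several start sites listed for Egr2. Of the 29 members found in the promoter table, 4 held a CRE on either strand (Btg2, Dusp1, Maff and Ppp1r15a), a share of 13.8% beside 2.03% of the 27025 genes in the table. A CArG box was found in 3 (Egr2, Dusp5 and Zfp36), a share of 10.3% beside 1.81%. The EGR letters GCGNGGGCG were found in 11 of 29, or 37.9%, beside 6.27% of all genes, and the AP-1 letters TGANTCA in 0 of 29 beside 8.97%. These windows may overlap between the start sites of 1 gene, and a match is a description of the letters only. Btg2 and Dusp1 both hold the CRE letters, and they were picked for display because their ratios lay mostly on opposite sides of 0. Whether the CRE has a part in these ratios was not tested.

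Vessel cells and Schwann cells held the largest share of immediate early RNA, and neurons the smallest. The UMIs of all 36 genes summed to 55465 CPM in control ECs and 55544 CPM in CFA ECs, to 45350 and 61879 CPM in nmSCs, to 34359 and 54153 CPM in mural cells, and to 33116 and 46596 CPM in mSCs. The sums were 28894 and 30701 CPM in FBs, 23038 and 27151 CPM in macrophages, 18051 and 17190 CPM in SGCs, 15791 and 14834 CPM in T or NK cells, 14445 and 13983 CPM in neutrophils or monocytes, 8005 and 13088 CPM in OLCs, and 3587 and 3812 CPM in neurons. Neurons were the lowest type for 19 of 36 members in the control library and for 20 in the CFA library.

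The order turned when the same UMIs were counted per cell, because neurons hold many times more RNA. A matched neuron had on average 145 UMIs of the 36 genes in the control library (143.6 to 146.0) and 154 in the CFA library (152.6 to 155.0). ECs had 97.8 and 97.0 UMIs per cell, mSCs 31.8 and 44.3, and T or NK cells 25.4 and 23.1. Neurons had the most UMIs per cell for 16 of 36 members in both libraries, ECs for 8 control and 7 CFA members. The bar plot of both scales shows that neurons moved from the last to the first place between them.

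**Figure D1:**
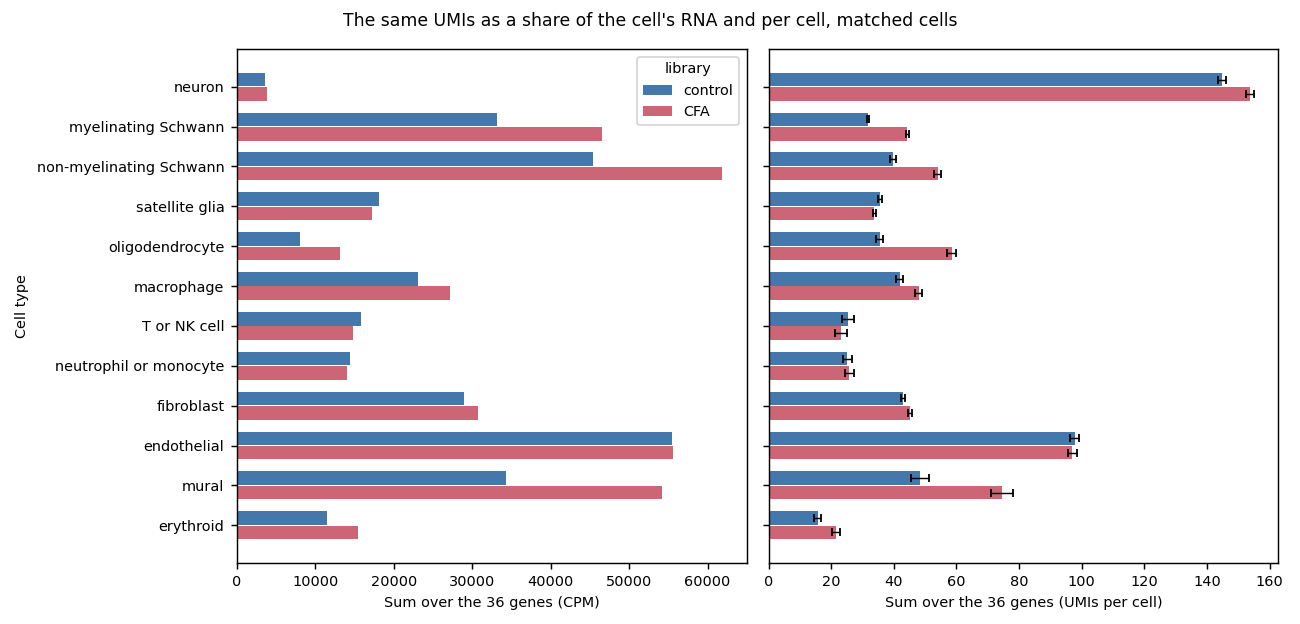
Sum of the 36 immediate early genes in each cell type (vertical axis), as CPM (left, horizontal axis) and as UMIs per cell (right, horizontal axis, bars with exact 95% Poisson intervals), for matched cells of the control (blue) and CFA (red) library. Neurons are lowest on the left, with 3587 control and 3812 CFA CPM, and highest on the right, with 145 and 154 UMIs per cell.

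Erythroid cells served as a rough reference for free RNA that is caught with any cell. This assumes that they make little of these RNAs themselves, which was not tested and may not hold for every member. Their own RNA and free RNA cannot be told apart here. The 42 matched cells per library held 15.7 control and 21.5 CFA UMIs of the 36 genes per cell (11495 and 15406 CPM), with 33.9% and 33.8% of their UMIs from haemoglobin genes. Counted per cell, 23 of 36 members were above the erythroid level beyond counting error in neurons in either library, 24 control and 25 CFA members in ECs, 15 and 16 in mSCs, 13 and 18 in nmSCs, 13 and 11 in SGCs, and 10 and 12 in OLCs. In CPM the order was the reverse for neurons, where 1 member was above and 20 control and 21 CFA members were below the erythroid level, and in OLCs 2 and 4 were above and 15 and 9 below. In erythroid cells 17 members had at least 20 UMIs, and 11 of these were higher in the CFA library. Among them were Jund at +1.03 (0.63 to 1.43), Egr1 at +1.20 (0.69 to 1.74), Egr2 at +1.26 (0.08 to 2.56), Btg2 at +3.38 (1.70 to 5.73), Dusp1 at +1.55 (0.42 to 2.82) and Ppp1r15a at +1.37 (0.70 to 2.08). The erythroid difference thus points the same way as that of several types for Jund, Egr1, Egr2 and Btg2, and the opposite way for Dusp1 and for Ppp1r15a, which was below 0 in 6 of 9 types, and its part in their differences was not tested.

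The plot of levels shows that most members were found in many types rather than in one. The highest type was the same in both libraries for 25 of 36 members, and for 12 of these the interval of the highest type lay above that of the next in both libraries. ECs were the highest type for 13 control and 7 CFA members, nmSCs for 5 and 8, mural cells for 4 and 10, T or NK cells for 5 and 2, and macrophages for 4 and 4. The CFA members led by mural cells rest on 23 cells, and Npas4 is among them with 1 UMI.

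**Figure D2:**
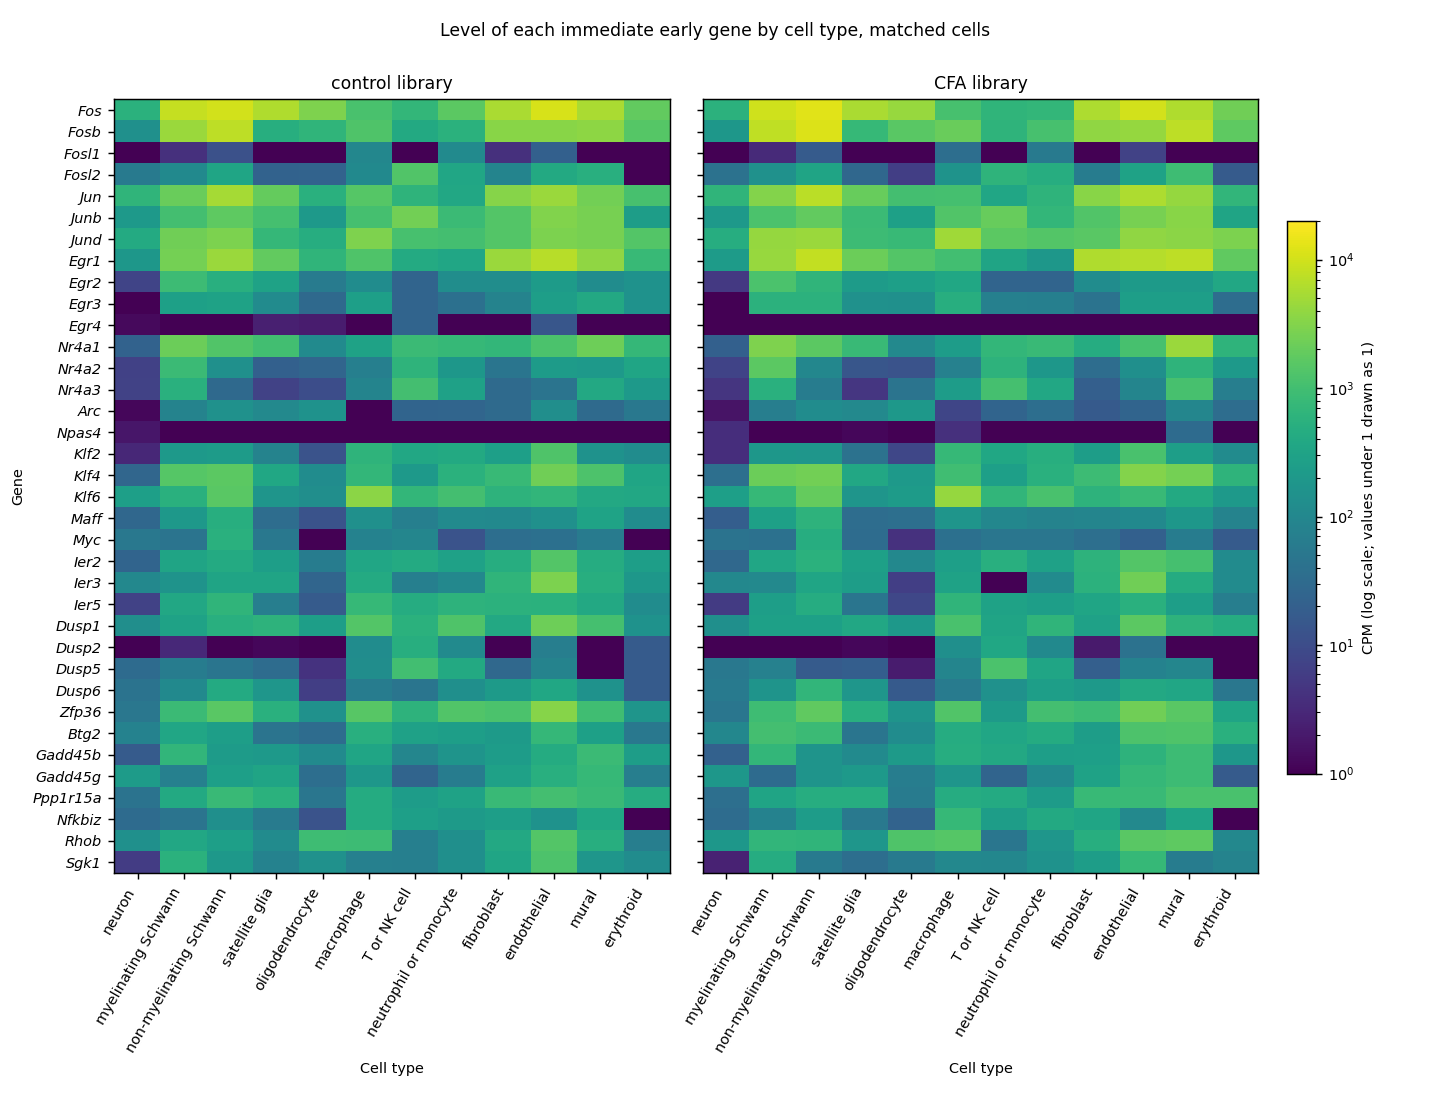
Level of each of the 36 genes (rows) in each cell type (columns) as CPM on a log colour scale, in matched cells of the control library (left) and the CFA library (right), with values under 1 drawn as 1. The neuron column is lowest for 19 control and 20 CFA genes, the columns of endothelial and non-myelinating Schwann cells are among the brightest, and Egr4, Fosl1, Dusp2 and Npas4 are near the floor in most types.

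Over 11 types, 34 members were measured in 262 pairs of a gene and a type, and 154 pairs were above 0 and 108 below 0. For 99 pairs the interval was above 0, for 53 it was below 0, and for 110 it held 0. The shares of such intervals over all genes were not counted. At least 2-fold higher in the CFA library were 16 pairs and at least 2-fold lower 7 pairs, or 6.11% and 2.67% of the 262, while among all 37807 gene and type pairs tested in the same types 1.49% were higher and 1.74% lower. The pooled background weighs the types unlike the members do. Neurons gave 13387 of the 37807 pairs but 31 of the 262, and mural cells 142 and 15. The pooled shares are thus a rough reference only, and the size of the gap to them is not read as a result. Only 4 of the 16 higher and 0 of the 7 lower pairs had 200 UMIs or more, and the interval lay wholly past 2-fold for 7 of the 16 and 0 of the 7. No test applies to these counts, since there is 1 library per condition.

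Counted by type, the pairs past 2-fold stood beside different backgrounds. In OLCs 5 of 20 measured members were at least 2-fold higher (Fosb, Egr1, Egr2, Egr3 and Btg2) and 1 was lower (Sgk1), where the background over all genes was 1.37% higher and 1.31% lower. The higher ones rest on a part of the cells. At least 1 UMI of Egr3 was found in 4.67% of matched control and 15.0% of CFA OLCs. Btg2 was found in 7.48% and 18.7%, Egr2 in 15.0% and 26.2%, Fosb in 36.4% and 55.1% and Egr1 in 36.4% and 50.5%. Egr1 is counted here by the same rule, although its shares in OLCs overlapped those in erythroid cells. Btg2 is counted too, although its CPM in OLCs was below that in erythroid cells in both libraries. In mural cells 3 of 15 were higher (Klf4, Btg2 and Rhob), beside 9.86% of 142 genes, and 0 were lower, beside 3.52%. In mSCs 2 of 32 were higher (Egr3 and Btg2) and 1 lower (Gadd45g), beside 1.21% and 1.8%. In nmSCs 2 of 27 were higher (Btg2 and Rhob) and 0 lower, beside 2.6% and 2.99%. In macrophages 2 of 28 were higher (Egr2 and Nr4a3) and 0 lower, beside 2.33% and 3.23%.

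Neurons had 1 of 31 measured members higher (Npas4) and 1 lower (Sgk1), beside 1.2% and 0.941%. Neutrophils or monocytes had 1 of 17 higher (Fosb) and 2 lower (Fos and Ier5), beside 4.46% and 5.04%. In T or NK cells 0 of 9 were higher and 1 lower (Fosl2), beside 3.86% and 4.72%. In SGCs 0 of 28 were higher and 1 lower (Sgk1), beside 1.22% and 1.86%. In FBs 0 of 27 and in ECs 0 of 28 were past 2-fold either way, where the background was 1.39% higher and 2.28% lower in FBs and 2.21% and 2.82% in ECs. A single pair in a type is not read as a result about the members. OLCs held 6 members past 2-fold, and mural cells, mSCs and neutrophils or monocytes 3 each. Several of these pairs moved by more than 1.5 times in another draw or weighting of the cells. Btg2 in mSCs was +0.76 in cells of at least 2000 UMIs, Btg2 in mural cells +1.03 with another seed, Klf4 in mural cells +0.46 and Egr3 in OLCs +1.19 with cells thinned, Sgk1 in OLCs -0.60 with every cell weighted equally, and Fosl2 in T or NK cells -0.39 without matching.

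**Figure D3:**
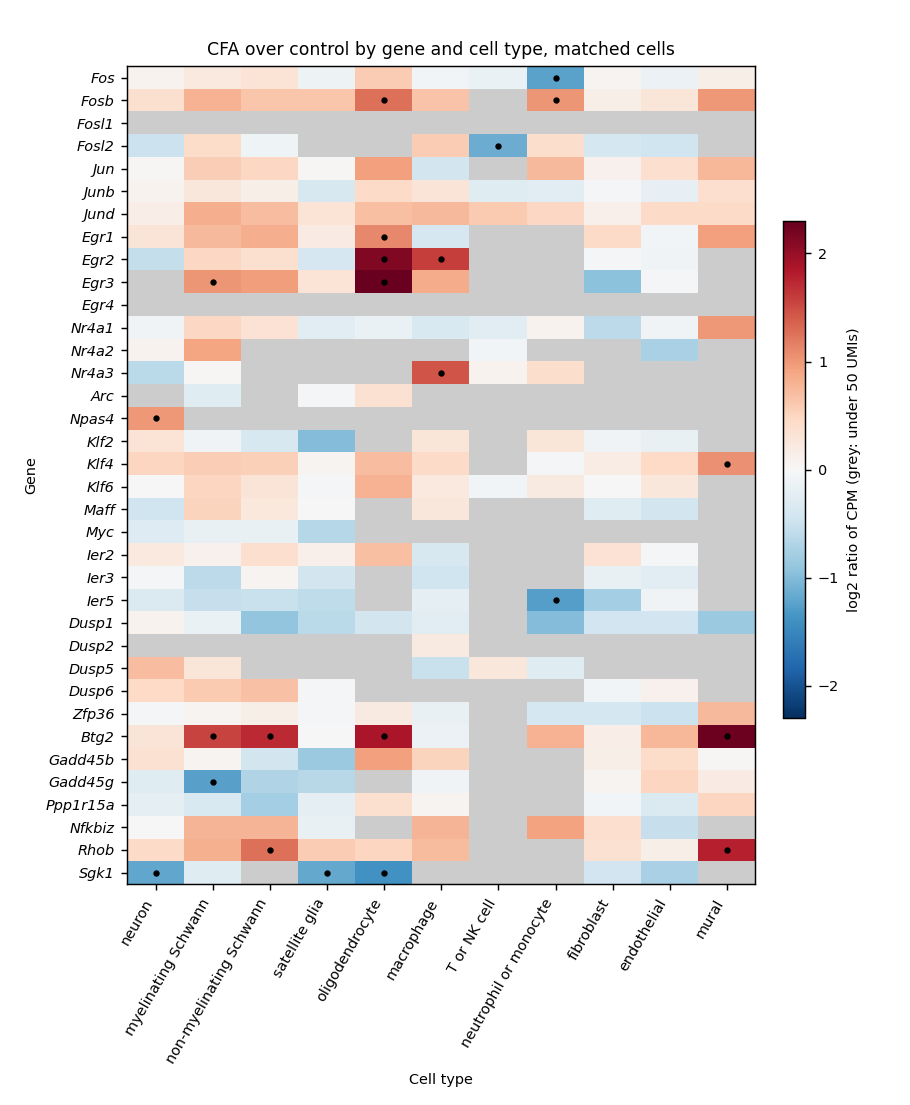
Log2 ratio of the CFA over the control CPM for each of the 36 genes (rows) in each of 11 cell types (columns), matched cells. Red is higher and blue lower in the CFA library, grey marks genes with under 50 UMIs in the type, and a dot marks the 16 pairs at least 2-fold higher and the 7 at least 2-fold lower; Fosb, Jund and Rhob are red in all measured types, and Sgk1 and Ier5 are blue in all of theirs.

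The median of the members was farthest from that of all measured genes in OLCs and mural cells. The intervals of these medians describe the spread over genes within 1 library per condition and are no test of the conditions. The median log2 ratio was +0.69 in OLCs (0.37 to 0.95), +0.75 in mural cells (0.20 to 0.99) and +0.35 in mSCs (0.02 to 0.57), where the median over all measured genes was +0.05, +0.13 and +0.05. The interval in mSCs holds the median of all genes. It was +0.32 in nmSCs (-0.10 to 0.64), +0.22 in macrophages (-0.18 to 0.51), +0.21 in neutrophils or monocytes (-0.27 to 0.47) and +0.07 in neurons (-0.09 to 0.29). Below 0 were FBs at -0.03 (-0.27 to 0.13), T or NK cells at -0.07 (-0.27 to 0.27), ECs at -0.08 (-0.24 to 0.14) and SGCs at -0.09 (-0.39 to 0.01). The members also differed among themselves within a type. In SGCs the interval was above 0 for 4 members and below 0 for 11, and in mSCs it was above 0 for 18 and below 0 for 5. The share of all genes with such intervals was not counted. The intervals also narrow with more UMIs, so these counts are not compared between types.

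**Figure D4:**
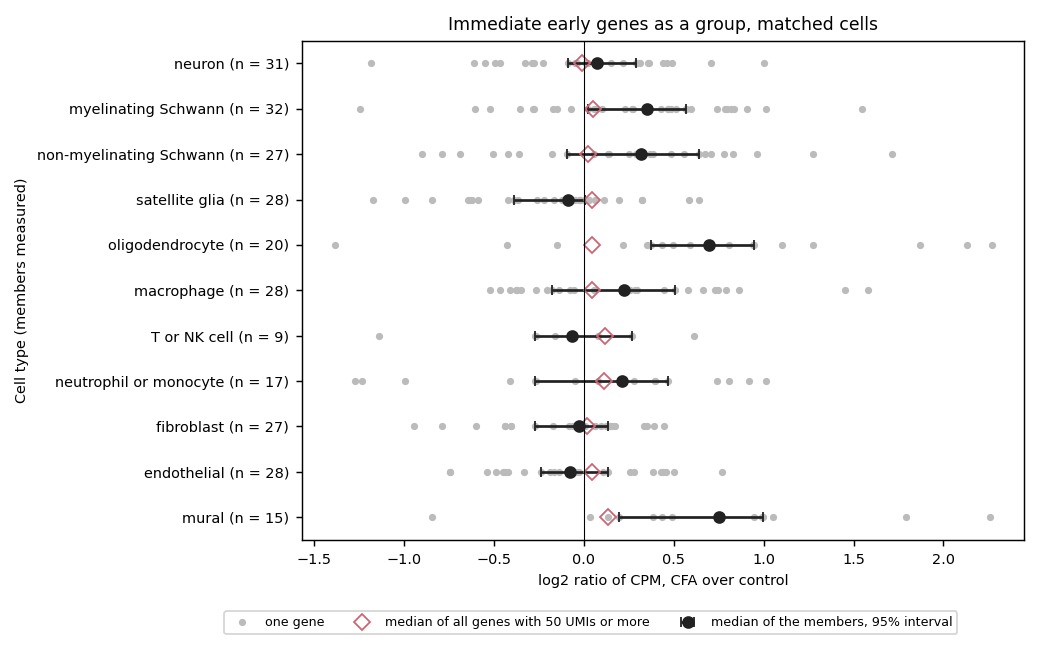
Log2 ratio of the CFA over the control CPM (horizontal axis) in 11 cell types (vertical axis, with the number of members measured), matched cells. Grey points are single genes, black points the median of the members with its exact 95% order-statistic interval, and red diamonds the median of all genes with 50 UMIs or more; the interval describes the spread over genes, and the members' median lies farthest from the diamond in oligodendrocyte-like cells (+0.69 beside +0.05) and mural cells (+0.75 beside +0.13).

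AP-1 is a dimer of 1 FOS and 1 JUN protein or of 2 JUN proteins, and its subunits gave 61 measured pairs, 45 of them above 0. Fos (chromosome 12, 85473890 to 85477273) was found in all types, at 11166 control and 10145 CFA CPM in ECs, 10256 and 12799 CPM in nmSCs, 8488 and 9933 CPM in mSCs, 6250 and 5743 CPM in SGCs, 5749 and 5989 CPM in FBs, and 553 and 585 CPM in neurons. ECs and nmSCs changed places between the libraries. Its difference was small in most types, from -0.16 in T or NK cells (-0.98 to 0.65) and -0.14 in ECs (-0.21 to -0.07) to +0.59 in OLCs (0.49 to 0.69). Neutrophils or monocytes stood apart at 1643 control and 699 CFA CPM, a log2 ratio of -1.23 (-1.71 to -0.78). It turned to +0.40 at clustering resolution 1.6, where the name covered 45 control and 22 CFA cells in place of 124 and 47. In neurons the ratio of Fos was +0.08 (0.04 to 0.12).

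Fosb, which has the partner role of FOS in AP-1, was higher in the CFA library in 10 of 10 measured types. It was found at 7502 control and 11700 CFA CPM in nmSCs and at 4500 and 7810 CPM in mSCs, a log2 ratio of +0.64 (0.54 to 0.74) and +0.80 (0.75 to 0.84). The ratio was +1.27 in OLCs (1.08 to 1.47), +1.01 in neutrophils or monocytes (0.48 to 1.57), +0.99 in mural cells (0.67 to 1.32), +0.36 in neurons (0.29 to 0.44) and, lowest of all, +0.14 in FBs (0.05 to 0.24). All 10 intervals lay above 0, but in neutrophils or monocytes the ratio was -0.21 at clustering resolution 1.6 and stayed past 2-fold in 4 of 11 alternatives. Jund, a JUN protein that many resting cells make, was likewise above 0 in 11 of 11 types, from +0.12 in FBs (-0.03 to 0.27) to +0.84 in mSCs (0.77 to 0.90). Its highest type was the macrophage, at 2908 control and 4874 CFA CPM.

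Jun was highest in nmSCs, at 5166 control and 7217 CFA CPM, and above 0 in 9 of 10 types, with +0.94 in OLCs (0.72 to 1.17) and -0.41 in macrophages (-0.64 to -0.19). Junb was highest in control ECs (3014 CPM, against 2646 CPM in CFA ECs) and in CFA mural cells (3385 CPM, against 2596 CPM in control mural cells). It ranged only from -0.36 in SGCs (-0.51 to -0.22) to +0.43 in OLCs (0.04 to 0.83). Fosl2 was led in the control library by T or NK cells, at 1362 CPM beside 617 CPM with CFA (-1.14, -1.88 to -0.44) on 26 cells per library. It was also lower in neurons, at -0.50 (-0.64 to -0.36), and higher in mSCs, at +0.43 (0.10 to 0.76). Fosl1 had under 50 UMIs in every type and reached at most 115 control and 60.2 CFA CPM, in neutrophils or monocytes.

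EGR proteins are zinc finger factors that bind GC-rich letters, and 5 of their 24 measured pairs were at least 2-fold higher. These were Egr1, Egr2 and Egr3 in OLCs, Egr2 in macrophages and Egr3 in mSCs. Over all genes the shares in these types were 1.37%, 2.33% and 1.21%. Most of the 5 pairs thus lie in OLCs and are not read as a trait of the family. Egr1 was highest in ECs in the control library (6993 CPM, beside 6708 CPM in the CFA library) and in nmSCs in the CFA library (4458 control and 7926 CFA CPM). It was +1.10 in OLCs (0.90 to 1.30), +0.94 in mural cells (0.63 to 1.27), +0.74 in mSCs (0.68 to 0.81), +0.45 in FBs (0.37 to 0.53) and +0.29 in neurons (0.23 to 0.36), but -0.06 in ECs (-0.15 to 0.03) and -0.38 in macrophages (-0.62 to -0.14). In OLCs the level was 660 control and 1415 CFA CPM, beside 786 and 1808 CPM in erythroid cells.

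Egr2 is the factor that drives myelin genes in Schwann cells, and mSCs were its highest type in both libraries, at 884 control and 1224 CFA CPM (+0.47, 0.36 to 0.58). The next were nmSCs, at 510 and 657 CPM. Its differences were unlike between types, with 61.2 control and 268 CFA CPM in OLCs (+2.13, 1.54 to 2.76), 121 and 363 CPM in macrophages (+1.58, 0.99 to 2.21), 299 and 228 CPM in SGCs (-0.39, -0.67 to -0.12) and 7.50 and 5.13 CPM in neurons (-0.55, -0.96 to -0.14). OLCs and macrophages were below the 375 CPM of CFA erythroid cells in CPM, while CFA OLCs held 1.20 UMIs per cell beside 0.52 in erythroid cells. Egr3 was +2.27 in OLCs (1.42 to 3.21; 29.5 control and 142 CFA CPM), +1.01 in mSCs (0.83 to 1.20; 283 and 570 CPM), +0.96 in nmSCs (0.46 to 1.48; 296 and 576 CPM) and +0.86 in macrophages (0.43 to 1.30), and -0.95 in FBs (-1.78 to -0.15). Egr4 was measured in no type, with 30 UMIs in neurons over both libraries.

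NR4A proteins are orphan nuclear receptors, and their 20 pairs split into 10 above and 10 below 0. Nr4a1 was highest in mural cells, at 2286 control and 4555 CFA CPM (+0.99, 0.58 to 1.42), then in mSCs, at 2150 and 2976 CPM (+0.47, 0.40 to 0.54), and was lower in FBs, at 692 and 456 CPM (-0.60, -0.85 to -0.35). Nr4a2 was led by mSCs in both libraries, at 871 control and 1634 CFA CPM (+0.91, 0.80 to 1.01), and ECs had 230 and 137 CPM (-0.75, -1.36 to -0.15). For Nr4a3 T or NK cells led the control library at 1027 CPM (1086 CPM in the CFA library), mSCs had 533 and 541 CPM, and macrophages had 87.2 and 238 CPM (+1.45, 0.74 to 2.21), a ratio that was +0.17 with cells thinned to 500 UMIs. In neurons Nr4a1, Nr4a2 and Nr4a3 were each at or below 22.4 CPM.

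The 2 members best known from brain neurons, Arc and Npas4, were near absent from TG neurons. Arc had 1.19 control and 1.67 CFA CPM in neurons and was highest in OLCs, at 154 and 196 CPM (+0.35, -0.10 to 0.81). The next were nmSCs, at 151 and 122 CPM, and the intervals of these types overlapped in both libraries. Npas4, a factor that is specific to neurons in the brain, was measured in neurons alone, at 1.85 control and 3.70 CFA CPM, a log2 ratio of +1.00 (0.36 to 1.67). At least 1 UMI of it was found in 8.53% of all 809 control neurons (6.70% to 10.7%) and 8.89% of all 416 CFA neurons (6.34% to 12.1%), shares that overlap. This pair did not keep its direction in all draws of cells: with every neuron thinned to 5000 UMIs its ratio was -0.45, and without cells of a high doublet score -0.03.

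Among the KLF, MAFF and MYC factors, 24 of 39 pairs were above 0. Klf2, which marks endothelium under flow, was highest in ECs, at 1319 control and 1177 CFA CPM (-0.16, -0.38 to 0.05), and in SGCs was 82.5 and 41.4 CPM (-0.99, -1.62 to -0.39). Klf4 was also led by ECs, at 2325 and 3194 CPM (+0.46, 0.31 to 0.60), and was above 0 in 9 of 10 types, with +1.05 in mural cells (0.49 to 1.64). Klf6 was highest in macrophages, at 3526 and 4136 CPM (+0.23, 0.10 to 0.36), ahead of the 1589 and 1942 CPM of nmSCs. Maff was highest in nmSCs, at 504 and 599 CPM, and ranged from -0.47 in neurons (-0.68 to -0.26) to +0.51 in mSCs (0.27 to 0.75). Myc, a factor of growth, was also highest in nmSCs, at 539 and 477 CPM, and was below 0 in all 4 measured types, with an interval below 0 in neurons alone (-0.29, -0.43 to -0.15).

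Of the IER genes, Ier3 and Ier5 were mostly lower in the CFA library and Ier2 was not, with 7 of 23 pairs above 0 and a median of -0.21. Ier2 was above 0 in 6 of 8 types. It was highest in ECs, at 1431 control and 1388 CFA CPM, and ranged from -0.37 in macrophages (-0.84 to 0.09) to +0.70 in OLCs (0.01 to 1.40). Ier3, which limits cell death, had its highest level in ECs, at 2798 and 2368 CPM (-0.24, -0.39 to -0.09), and was -0.61 in mSCs (-0.93 to -0.28). Ier5 was below 0 in 8 of 8 types, from -0.08 in ECs (-0.41 to 0.25) to -1.27 in neutrophils or monocytes (-2.09 to -0.51; 611 control and 253 CFA CPM). Its highest type was the macrophage, at 766 and 664 CPM.

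MAP kinase phosphatases remove the phosphates that activate the kinases, and 9 of their 22 pairs were above 0. Dusp1, which acts on p38 and JNK, was highest in ECs, at 2238 control and 1648 CFA CPM (-0.44, -0.62 to -0.27), followed by macrophages at 1406 and 1168 CPM. It was below 0 in 9 of 10 types, with 8 intervals below 0, among them -0.998 in neutrophils or monocytes (-1.50 to -0.51), -0.90 in nmSCs (-1.44 to -0.37) and -0.62 in SGCs (-0.83 to -0.42). Pooled neurons were the exception at +0.07 (-0.01 to 0.16), with 134 and 141 CPM. The neuron subtypes compared below went both ways. Nonpeptidergic neurons and C-fibre touch receptors were below 0, while the compared peptidergic and cold-sensing neurons were above 0. Erythroid cells were higher in the CFA library, at 157 and 461 CPM. Dusp2 was a leukocyte gene here, with 502 and 370 CPM in T or NK cells, and was measured only in macrophages. Dusp5 was highest in T or NK cells too, at 1003 and 1209 CPM, and was +0.71 in neurons (0.55 to 0.86; 32.1 and 52.3 CPM). Dusp6, a phosphatase of the cytoplasm, was highest in nmSCs, at 423 and 675 CPM (+0.67, 0.24 to 1.12), and was +0.60 in mSCs (0.28 to 0.92) and +0.46 in neurons (0.32 to 0.60).

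The genes of RNA decay and growth arrest split into 26 pairs above 0 of 46. Btg2, which slows the cell cycle and helps to remove poly(A) tails, was above 0 in 9 of 10 types and at least 2-fold higher in 4. It was 351 control and 1025 CFA CPM in mSCs (+1.55, 1.39 to 1.71), 261 and 855 CPM in nmSCs (+1.71, 1.22 to 2.23), 33.7 and 123 CPM in OLCs (+1.87, 1.05 to 2.77) and 278 and 1328 CPM in mural cells (+2.26, 1.20 to 3.48). ECs had 745 and 1268 CPM (+0.77, 0.52 to 1.02) and neurons 80.7 and 98.5 CPM (+0.29, 0.18 to 0.39). In SGCs (+0.01, -0.67 to 0.68), FBs (+0.16, -0.23 to 0.54), macrophages (-0.14, -0.51 to 0.23) and neutrophils or monocytes (+0.81, -0.02 to 1.67) the interval held 0. The pair in mSCs was the most deeply counted of the 4, and erythroid cells had 3 control and 32 CFA UMIs of Btg2, or 52.4 and 546 CPM. The levels in OLCs were below these in both libraries. Per cell, CFA OLCs held 0.55 UMIs of Btg2 (0.42 to 0.71), while the 32 erythroid UMIs came from 42 cells. Btg2 in CFA OLCs was thus not above this reference on either scale.

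Zfp36, which binds AU-rich mRNA for decay, was highest in ECs at 3289 control and 2340 CFA CPM (-0.49, -0.64 to -0.35). It was -0.41 in FBs (-0.59 to -0.23) and +0.75 in mural cells (0.08 to 1.45). Gadd45b, a stress sensor, was lower in SGCs (206 and 115 CPM, -0.85, -1.22 to -0.48) and higher in OLCs (116 and 224 CPM, +0.95, 0.47 to 1.44). Gadd45g was led by mural cells, at 772 and 886 CPM, and was the only member with a pair at least 2-fold lower in mSCs, at 76.0 and 32.0 CPM (-1.25, -1.82 to -0.70). It was also -0.63 in SGCs (-0.91 to -0.36) and -0.28 in neurons (-0.35 to -0.21; 229 and 189 CPM), and +0.50 in ECs (0.19 to 0.82). Ppp1r15a, which ends the block of translation after stress, was -0.79 in nmSCs (-1.20 to -0.39), -0.35 in mSCs (-0.54 to -0.17) and -0.33 in ECs (-0.59 to -0.08), where it had 1041 control and 826 CFA CPM.

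The 3 signalling effectors each kept mostly to one direction. Rhob, a small GTPase, was above 0 in 9 of 9 types, from +0.14 in ECs (-0.06 to 0.33) to +1.28 in nmSCs (0.77 to 1.80; 267 control and 645 CFA CPM) and +1.79 in mural cells (0.96 to 2.69; 494 and 1708 CPM). It was +0.44 in neurons (0.36 to 0.52; 141 and 192 CPM) and +0.49 in OLCs (0.32 to 0.67; 934 and 1315 CPM). Sgk1, a kinase that glucocorticoids induce, was below 0 in 6 of 6 types with all 6 intervals below 0. It was -0.74 in ECs, its highest type (-0.99 to -0.49; 1253 and 748 CPM), -1.39 in OLCs (-2.08 to -0.73; 148 and 56.4 CPM), -1.19 in neurons (-1.74 to -0.66; 5.84 and 2.56 CPM), -1.18 in SGCs (-1.85 to -0.54; 80.1 and 35.5 CPM) and only -0.28 in mSCs (-0.44 to -0.12; 565 and 466 CPM). With cells thinned to 500 UMIs the ratio in SGCs was +0.03. Nfkbiz, an IκB protein of the nucleus, was highest in macrophages, at 436 and 754 CPM (+0.79, 0.45 to 1.14), and above 0 in 6 of 8 types.

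**Figure D5:**
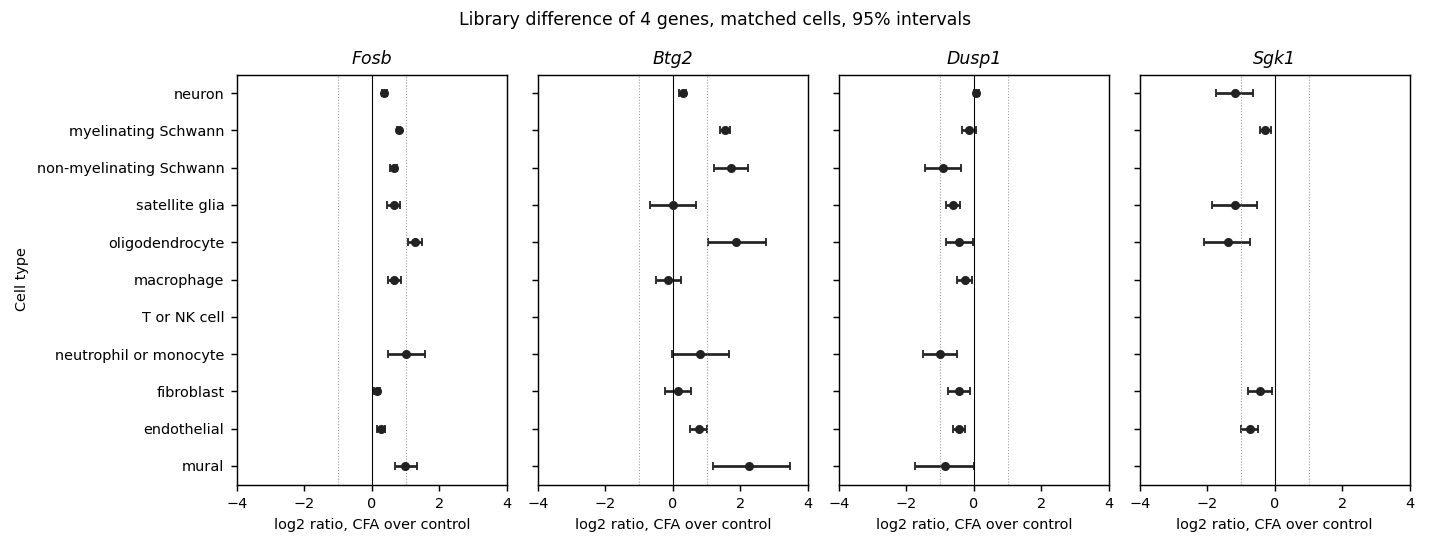
Log2 ratio of the CFA over the control CPM (horizontal axis, dotted lines at 2-fold) with exact 95% intervals for Fosb, Btg2, Dusp1 and Sgk1 in the cell types (vertical axis) with at least 50 UMIs of the gene, matched cells. Fosb lies above 0 in 10 of 10 types, Btg2 in 9 of 10, Dusp1 below 0 in 9 of 10 and Sgk1 in 6 of 6, and of these 4 genes Btg2 has the widest spread between types.

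Few members had a ratio on the same side of 0 in every measured type. Of the 34 measured members, 26 were above 0 in some types and below 0 in others, 5 were above 0 in every measured type (Fosb, Jund and Rhob, and Npas4 and Dusp2, which were measured in 1 type each) and 3 below 0 in every measured type (Myc, Ier5 and Sgk1). For 14 members the interval was above 0 in at least 1 type and below 0 in another. Neither count was made over all genes, and 110 of the 262 intervals held 0. Both counts are thus not read as particular to the members. Among the 29 members measured in 5 or more types, the SD of the log2 ratio over types was 1.00 for Egr3, 0.95 for Egr2 and 0.86 for Btg2, against 0.24 for Jund, 0.24 for Ier3 and 0.27 for Klf6.

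nmSCs need a caution, because their 2 clusters held different shares of the libraries. The first cluster had 199 control and 157 CFA cells, the second 224 control and 40 CFA cells. Among the top genes of the second were Emp1, Cebpd, Trib1 and Myc. Myc is a member, and Cebpd and Trib1 are in the list of other early response genes. Myc was at 340 control and 380 CFA CPM in the first cluster and at 711 and 823 CPM in the second. In pooled nmSCs it was lower in the CFA library, at 539 and 477 CPM. What sets the clusters apart was not tested. The pooled ratio of Fos in nmSCs was +0.32 (0.23 to 0.41), but within the first cluster Fos was at 15079 control and 14254 CFA CPM (-0.08, -0.17 to 0.00) and within the second at 5856 and 7615 CPM (+0.38, 0.19 to 0.56). For Egr1 the pooled +0.83 stood beside +0.28 (0.17 to 0.40) and +0.93 (0.67 to 1.18). Btg2 was +1.58 (1.09 to 2.09) and +1.83 (1.14 to 2.50) within the clusters, Fosb +0.62 (0.52 to 0.73) and +0.82 (0.67 to 0.96), and Rhob +1.13 (0.63 to 1.65) and +1.61 (0.78 to 2.39), so that these 3 were higher in both. SGCs also held a cluster of 142 control and 3 CFA cells.

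The share of cells with at least 1 UMI gave a like order once each cell was thinned to 500 UMIs. Fos was found in 81.0% of control and 84.0% of CFA ECs, in 83.8% and 91.9% of nmSCs, in 76.5% and 79.9% of mSCs, in 23.2% and 25.7% of neurons, and in 37.5% and 26.4% of erythroid cells. On this scale Fos in neurons was not above the erythroid share. Without thinning, Fos had a UMI in 97.9% of control and 97.4% of CFA neurons and in 55.1% and 39.6% of erythroid cells, where the median depth of all kept cells was 44109 control and 36676 CFA UMIs in neurons and 1044 control and 1171 CFA UMIs in erythroid cells. Btg2 was found in 13.5% of control mSCs (12.1% to 15.1%) and 30.3% of CFA mSCs (27.8% to 32.9%), in 10.3% (7.53% to 13.6%) and 32.5% (26.0% to 39.5%) of nmSCs, and in 4.17% (0.509% to 14.3%) and 15.4% (8.67% to 24.5%) of erythroid cells. Egr1 was found in 42.8% and 61.4% of mSCs and in 17.3% (10.4% to 26.3%) and 34.97% (27.2% to 43.4%) of OLCs, beside 20.8% (10.5% to 34.99%) and 26.4% (17.7% to 36.7%) of erythroid cells. The shares of Egr1 in OLCs overlapped the erythroid shares in both libraries and are not read as expression.

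Neurons were also divided by marker genes into subtypes like peptidergic neurons (PEP1), nonpeptidergic neurons (NP1 and NP2), C-fibre touch receptors (cLTMR) and cold-sensing Trpm8 neurons. PEP2 neurons, also peptidergic (12 control and 11 CFA cells), and Nefh-positive neurons (NF, 17 and 6) had too few matched cells and were left out. Unmatched, they held 680 control and 851 CFA CPM of Fos in PEP2 and 271 and 278 CPM in NF. All 36 genes summed to 4688 and 5964 CPM in PEP2 and to 2191 and 2276 CPM in NF. Among the compared subtypes only, PEP1 neurons led 16 of 36 control and 17 of 36 CFA members. They had 687 control and 756 CFA CPM of Fos, 944 and 1002 CPM of Jun, 456 and 475 CPM of Klf6, 336 and 279 CPM of Gadd45g and 145 and 182 CPM of Btg2. The lowest compared subtype for Jun was the cLTMR, with 105 and 78.3 CPM. The phosphatase genes had other leaders, with Dusp5 at 152 and 183 CPM in cLTMR neurons and at 2.93 and 2.19 CPM in PEP1 neurons, and Dusp6 at 104 and 158 CPM in NP1 neurons. The subtypes held different shares of the libraries, with NP1 at 194 of 809 control and 68 of 416 CFA neurons and cLTMR at 73 and 48. Neurons were matched on UMIs and not on subtype. The ratios of pooled neurons, such as +0.71 for Dusp5, may thus also hold a part from the mix of subtypes, which was not tested.

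The summed levels and medians differed little between the libraries in the compared subtypes, but single genes differed more. Nfkbiz in Trpm8 neurons was at least 2-fold lower in the CFA library, a ratio that turned to +0.0772 with cells thinned. It is named because its direction turned. Other subtype pairs past 2-fold are neither listed nor counted here, so this pair does not show how many there are or how stable they are. The share of matched cells with at least 1 UMI went both ways. For Nr4a1 in cLTMR neurons it was 68.9% control and 40% CFA, and for Btg2 in Trpm8 neurons 40.6% and 62.5%. These shares are examples only. The counts of pairs past 2-fold given above leave the subtypes out. The summed level of the 36 genes was 4726 control and 5076 CFA CPM in PEP1, 2845 and 2909 CPM in NP1, 2318 and 2123 CPM in NP2, 1833 and 1977 CPM in cLTMR, and 3070 and 3125 CPM in Trpm8 neurons. The median log2 ratio was +0.09 (-0.06 to 0.18), +0.01 (-0.18 to 0.17), -0.02 (-0.52 to 0.08), -0.17 (-0.54 to 0.42) and +0.06 (-0.28 to 0.30) in this order. Dusp1 went both ways, with +0.15 in PEP1 (0.04 to 0.26) and +0.54 in Trpm8 neurons (0.24 to 0.84) beside -0.66 in NP1 (-0.88 to -0.44), -0.78 in NP2 (-1.31 to -0.27) and -0.54 in cLTMR neurons (-0.86 to -0.21). Egr1 was above 0 in all 5, from +0.05 in NP2 (-0.44 to 0.53) to +0.62 in NP1 (0.42 to 0.82). The matched cells ranged from 215 per library for PEP1 to 14 for NP2.

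Genes of other lists were set beside the members. Of 27 other early response genes, 23 were measured in neurons and 6 of these were above 0 (median -0.15), in SGCs 2 of 19 (median -0.26), and in mSCs 7 of 23 (median -0.13), where 23 of 32 members were above 0. Most were above 0 in macrophages (13 of 17, median +0.08), OLCs (6 of 8, median +0.27) and neutrophils or monocytes (6 of 8, median +0.25). Named by the most types past 2-fold, with ties set by UMIs, were Nfkbia, the inhibitor of NF-κB, lower in 3 types (SGCs 470 control and 140 CFA CPM, -1.75), Cebpb, lower in 2, and Atf3, higher in mural cells (711 and 2214 CPM) and tied with 5 other genes at 1 type, of which 3 were lower. The kinases and factors that lead to these genes stood near 0 in the 3 types with the most measured, with medians of -0.02 over 23 genes in neurons, +0.03 over 15 in mSCs and -0.01 over 12 in SGCs. In OLCs 6 of 6 measured were above 0 (median +0.45), and in FBs 1 of 5 (median -0.37). In this list Crem, an inducible repressor at CREs, was lower in SGCs (62.4 and 23.6 CPM) and ECs, and Mapk3 had 0 of 8 types past 2-fold. Late activity-induced genes were measured mainly in neurons, with 3 of 8 above 0 and a median of -0.06, and Scg2, Nrn1 and Vgf were each past 2-fold lower only in mSCs, at under 70 CPM. In neurons they stood far higher, at 1037 control and 1042 CFA CPM for Scg2, 910 and 996 CPM for Nrn1 and 353 and 336 CPM for Vgf. Whether their UMIs in mSCs are neuronal RNA caught with these cells was not tested.

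Heat shock genes, which also respond to handling of cells, had a median of -0.37 in mSCs, -0.35 in FBs, -0.25 in SGCs, -0.10 in neurons and +0.07 in macrophages. At least 2-fold lower were Hspa1b in mSCs (361 control and 170 CFA CPM) and FBs, Hspa8 in SGCs (544 and 238 CPM) and Bag3 in ECs (258 and 123 CPM). Hspa8 was below 0 in every measured type, from -0.18 in T or NK cells to -1.20 in SGCs. Hspa1b and Bag3 were above 0 in some types and below 0 in others. Interferon response genes were lower in the CFA library in most types, with 0 of 18 above 0 and 9 at least 2-fold lower in neurons, and 0 of 14 and 11 in SGCs. Gbp2 was at least 2-fold lower in 7 of 7 types, Cxcl10 in 5 of 7 and Ifit3 in 4 of 6. The part of these lists in the members' differences was not tested.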

How the data were processed

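The deposited files hold UMI counts per gene and cell for 1 control and 1 CFA library of BD Rhapsody poly(A) RNA. The authors made these counts from reads; the submitters' processing notes name fastp and GRCm38, and the aligner and its version are not given in the sources used here. Cells with at least 150 genes and at most 25% mitochondrial UMIs were kept, as in the study's methods.

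Both libraries were clustered together with Seurat 5.3.0 in R 4.3.3 (2000 variable genes without the members and listed genes, 20 principal components, 20 neighbours, resolution 0.8). Clusters were named by at least 3 marker genes, neurons were clustered again at resolution 1, and clusters named satellite glia or non-myelinating Schwann cells were clustered again at resolution 0.8, a step added after the clusters were seen. Doublets were scored with scanpy 1.11.5 and kept in (122 control and 25 CFA cells scored above 0.25).

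Within each type, cells were matched in bins of 0.5 log2 UMIs with equal numbers per library, and UMIs were summed. Levels carry exact Poisson and ratios conditional exact binomial 95% intervals (scipy 1.17.1), shares exact binomial ones. UMIs are molecules, and all intervals cover counting error only. With 1 library per condition no test was run. On simulated counts by type, 92.7% to 100% of the changed genes had their true ratio within the interval. These counts were drawn with the counting error that the intervals assume. The result thus checks the calculation only and not the variation between cells. With another seed of the draw of real cells, 25 of 262 ratios fell outside their interval.

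The members and lists were chosen with earlier results of these data known. All 36 members are accounted for: those with at least 100 CPM in 1 type of both libraries are described, and Fosl1, Egr4 and Npas4 by range and count. Of each other list the 3 genes with the most types past 2-fold are named, with ties (also at 0 types) set by UMIs, except 1 gene that is not reported here. Alternatives were depth, thinning, filters, resolution, doublets, centring and thresholds.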

Additional observations from a re-analysis of the deposited data

Results flagged for a closer look

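Cells outside the comparisons also held the 36 genes. The unnamed cells (749 control, 262 CFA) had a summed level of 19722 control and 20789 CFA CPM, a log2 ratio of +0.08 (0.04 to 0.11). B cells, too few to match (56 control, 16 CFA), held 10060 CPM of them in the control and 12612 CPM in the CFA library (log2 ratio +0.33, 0.10 to 0.54). Both are listed because the level in the CFA library was above that in the control library in cells that no comparison used.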

How the results depend on the processing

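No paired analysis was possible because each condition has 1 library. The count of pairs at least 2-fold higher (16) was 54 at 1.5-fold, 4 with at least 200 UMIs and 7 with cells thinned to one depth, and that of pairs at least 2-fold lower (7) was 25, 0 with at least 200 UMIs, 13 with at least 20 UMIs and 4 at clustering resolution 0.4. At that resolution T or NK cells and neutrophils or monocytes, which hold 3 of the 7 lower pairs, fell into 1 unnamed cluster. The only cluster then named non-myelinating Schwann held 13 control and 18 CFA cells, too few to be compared. Its top genes included Olig1, Vcan and Gpr17, as did those of a cluster of the same size left unnamed in the main result. The non-myelinating Schwann cells of the main result were thus not compared under their name. The satellite glia cluster then held 1869 control and 710 CFA cells, beside 1059 and 430 satellite glia in the main result. With cells of at least 2000 UMIs, 96 of 166 pairs were above 0, the highest type was that of the main result for 20 control and 15 CFA members, and the median in fibroblasts was +0.24. Without matching, the median in T or NK cells was -0.29. Turned in direction were Npas4 in neurons (-0.45 thinned, -0.0298 without high doublet scores), Sgk1 in satellite glia (+0.0313 thinned), Nfkbiz in Trpm8 neurons (+0.0772 thinned), and in neutrophils or monocytes Fos (+0.40) and Fosb (-0.21) at resolution 1.6. At resolution 1.6 the name neutrophil or monocyte covered 45 control and 22 CFA cells, beside 124 and 47 in the main result. A cluster of 80 control and 25 CFA cells, with Ly6c2, Ccr2 and Plac8 among its top genes, was then unnamed. The turned ratios of Fos and Fosb thus come from a different set of cells, and the main ratios pool cells that this resolution set apart. The cause of the other turns was not tested. Of the 23 pairs past 2-fold, 16 stayed past it without matching, 17 thinned and 18 with another seed of the draw. All 23 stayed without the control-rich non-myelinating Schwann cluster, a setting chosen after seeing the data. That setting leaves every other type unchanged, so of these pairs it could move only Btg2 and Rhob in non-myelinating Schwann cells. Depth limits the rest: most members had under 50 UMIs in T or NK, neutrophil or mural cells.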
